A study of Mus musculus with 8 samples.

Results

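The genes of DNA replication and S phase were examined as a module of 41 members, chosen by name from the 20170 genes in the deposited count matrix, in mouse splenic T cells that lack SDHA, the flavoprotein subunit of mitochondrial complex II. The 8 single-cell RNA-seq libraries came from WT and SDHA-KO mice, each as unstimulated and as stimulated T cells, with 2 replicates in each of the 4 groups. The study describes SDHA-KO mice as Sdha fl/fl CD4-Cre, in which the Cd4 promoter drives Cre, and the floxed Cre-negative animals as their controls, and it used mice of 8 to 12 weeks of age. T cells were purified from spleen with a magnetic pan T cell kit and cultured alone or with soluble antibodies to CD3ε (5 μg/mL) and CD28 (2.5 μg/mL) for 48 hours, and dead cells were removed from all samples. The labels do not say whether replicates came from separate mice, so p-values measure only the spread between these samples, which may be technical.

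Before S phase, the origin recognition complex and Cdc6 load the ring-shaped MCM helicase on DNA, and Cdc45 and the GINS complex then turn it into the active helicase of the replication fork. DNA polymerase alpha with its primase starts each strand, the sliding clamp Pcna is loaded by replication factor C and holds the polymerases and the flap nuclease Fen1, and ribonucleotide reductase and thymidylate synthase supply deoxynucleotides. Naive T cells are quiescent and transcribe little of this machinery, which E2F transcription factors switch on when the antigen receptor and CD28 are engaged. The 41 genes were grouped by role into 10 of licensing and helicase, 6 of polymerase, primase and clamp, 3 of nucleotide synthesis, 9 of chromatin, histone supply and DNA methylation, 11 of fork protection, checkpoint and repair, and 2 regulators of S phase entry.

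Letters of the E2F binding site were more frequent in the promoter windows of the members than in those of all genes. RefSeq promoter windows on GRCm38.p6, each running from before to just after a gene's start, were given for 31 of the 41 members. At least 1 of the letter runs TTTCCCGC, TTTCGCGC, TTTGCCGC and TTTGGCGC, read on both strands, was found for 14 of these 31 genes (45.2%), against 704 of 27025 genes with a window (2.60%). CCAAT, the letters bound by the factor NF-Y, were found on either strand for 22 of the 31 members (71.0%) and for 41.1% of all genes. The stretches below are shown because they carry these E2F letters upstream of members that load or form the helicase (Cdc6, Mcm5, Mcm6, Mcm7), prime DNA synthesis (Pola1) or act on chromatin (Hells, Uhrf1, Cdca7). Each holds 60 bases, all before the start, 5′ to 3′ on the gene's strand, and capitals mark the E2F letters, with 2 overlapping matches in Mcm5.
Cdc6: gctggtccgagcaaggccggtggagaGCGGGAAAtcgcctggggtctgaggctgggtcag
Mcm5: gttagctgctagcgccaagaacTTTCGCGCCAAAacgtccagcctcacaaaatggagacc
Mcm6: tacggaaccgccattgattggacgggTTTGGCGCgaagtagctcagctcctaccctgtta
Mcm7: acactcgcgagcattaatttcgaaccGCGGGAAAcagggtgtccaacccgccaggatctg
Pola1: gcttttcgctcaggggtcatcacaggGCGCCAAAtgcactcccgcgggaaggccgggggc
Hells: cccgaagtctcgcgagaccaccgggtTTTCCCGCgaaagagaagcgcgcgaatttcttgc
Uhrf1: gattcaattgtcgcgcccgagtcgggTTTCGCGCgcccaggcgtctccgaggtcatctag
Cdca7: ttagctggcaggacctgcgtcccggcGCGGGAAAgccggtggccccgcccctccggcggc
The stretches lie at chr11:98907987-98908046 (plus strand) for Cdc6, chr8:75109334-75109393 (plus) for Mcm5, chr1:128359719-128359778 (minus) for Mcm6, chr5:138172015-138172074 (minus) for Mcm7, chrX:93632260-93632319 (minus) for Pola1, chr19:38930902-38930961 (plus) for Hells, chr17:56304102-56304161 (plus) for Uhrf1 and chr2:72476122-72476181 (plus) for Cdca7. The other members with the letters in a window were Casp8ap2, Clspn, Dtl, Mcm3, Pold3 and Ubr7. A match describes the letters and says nothing of which factor was bound in these cells.

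The libraries held 12846 cells. Each library held 10947009 to 14883158 unique molecular identifiers (UMIs, one per captured transcript) in unstimulated and 46201110 to 51398728 in stimulated cells. UMIs of cells that the authors annotated as CD4 or CD8 were summed per library, giving 3640136 to 34087903 UMIs per sum, and levels are in CPM (counts per 1000000 UMIs) scaled by the TMM method of edgeR. Differences were tested by edgeR's quasi-likelihood test over all genes that passed a low-count filter, which all 41 members did in every fit, and a gene was called higher or lower at a Benjamini-Hochberg adjusted p under 0.05. In such sums, fewer cells of a type that transcribe a gene and less RNA per cell cannot be told apart. Of all barcodes, 23 were shared by more than 1 library.

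The targeted gene and several markers moved with genotype. In the CD4 class, Sdha stood at 74.0 and 73.1 CPM in the stimulated WT libraries against 26.5 and 26.4 CPM with SDHA-KO. In the CD8 class, the stimulated WT libraries had 76.2 and 74.9 CPM and the SDHA-KO libraries 53.3 and 50.5 CPM. The log2 fold change was -0.54 (SE 0.07, adjusted p = 8.73e-05) beside -1.47 in the CD4 class. Unstimulated CD8 cells had 91.4 and 95.7 CPM in WT and 39.0 and 37.6 CPM in SDHA-KO. The unstimulated log2 fold change was -1.29 in the CD8 and -1.02 in the CD4 class, so the CD8 gap was smaller after stimulation. Trdc, the constant region of the gamma-delta T cell receptor, was detected in 59.1% and 56.1% of stimulated SDHA-KO CD8 cells and in 3.67% and 4.92% of WT CD8 cells, at median depths of 30660 and 29910 UMIs per cell in SDHA-KO and 13150 and 13260 in WT. Among CD4 cells, 10.1% and 8.65% in SDHA-KO and 1.98% and 3.21% in WT had a Trdc UMI. The 7 of 9 listed gamma-delta markers that are in the matrix summed to 255 and 265 CPM, without TMM scaling, in stimulated SDHA-KO CD8 cells and to 18.1 and 21.2 in WT. The same sum was 233.5 and 174.5 in unstimulated SDHA-KO CD8 cells and 28.8 and 26.3 in WT, so the excess was present without stimulation. None of the 7 was at 0 in the stimulated SDHA-KO CD8 libraries, and Il17a was at 0 in both WT libraries. In the same stimulated CD8 cells, 5 NK cell markers summed to 41.7 and 51.2 CPM in SDHA-KO and 18.8 and 22.7 in WT, 7 B cell markers to 345 and 64.7 in SDHA-KO and 54.6 and 50.8 in WT, and 9 T cell markers to 2595 and 2988 in SDHA-KO and 2839 and 2872 in WT. The part of these cells in the results was tested only by leaving out cells with a Trdc UMI. Stimulated cells also differed in the share of mitochondrial UMIs (percent.mt), whose median was 17.9% and 16.2% in the WT libraries and 2.29% and 2.20% in the SDHA-KO libraries. Results for the members are therefore also given for cells with percent.mt under 10 and, as a choice made after seeing the data, for cells with no Trdc UMI.

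Stimulation raised the whole module in both genotypes and both classes. All 41 members were called higher in stimulated than in unstimulated WT CD4 cells and none lower, with a median log2 fold change of 2.86, where 36.2% of all genes tested were called higher and 30.1% lower. The same 41 were called higher in SDHA-KO CD4 cells (median 2.84; all genes 36.6% higher and 33.2% lower), in WT CD8 cells (median 2.90; all genes 35.5% and 30.3%) and in SDHA-KO CD8 cells (median 2.67; all genes 37.2% and 30.9%). Scaling by library totals alone raised the median of all genes in these 4 comparisons by 0.22 to 0.48 log2 units and left all 41 members called higher.

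Some members were at or near 0 before stimulation, whereas others were already well detected. E2f8, an atypical E2F that represses E2F targets late in S phase, had 0 UMIs in the unstimulated WT CD4 libraries and 702 in the stimulated ones, which is at least 60.5-fold higher against a floor of 3 UMIs over the group. Cdc6, the MCM loading factor, went from 0 to 1511 UMIs in WT CD8 cells, at least 111.5-fold higher on the same floor. Rrm2, the small subunit of ribonucleotide reductase, stood at 0.86 and 0.45 CPM in unstimulated and at 83.7 and 86.4 CPM in stimulated WT CD8 cells. The smallest increase in all 4 comparisons was that of Ubr7, a histone-directed ubiquitin ligase, at a log2 fold change of 0.72 in WT CD4 and 0.40 in SDHA-KO CD8 cells. Members with a high level before stimulation included Nasp, a histone chaperone, at 90.8 and 84.8 CPM in unstimulated WT CD4 cells, and Pcna at 68.5 and 63.4 CPM.

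**Figure D1:**
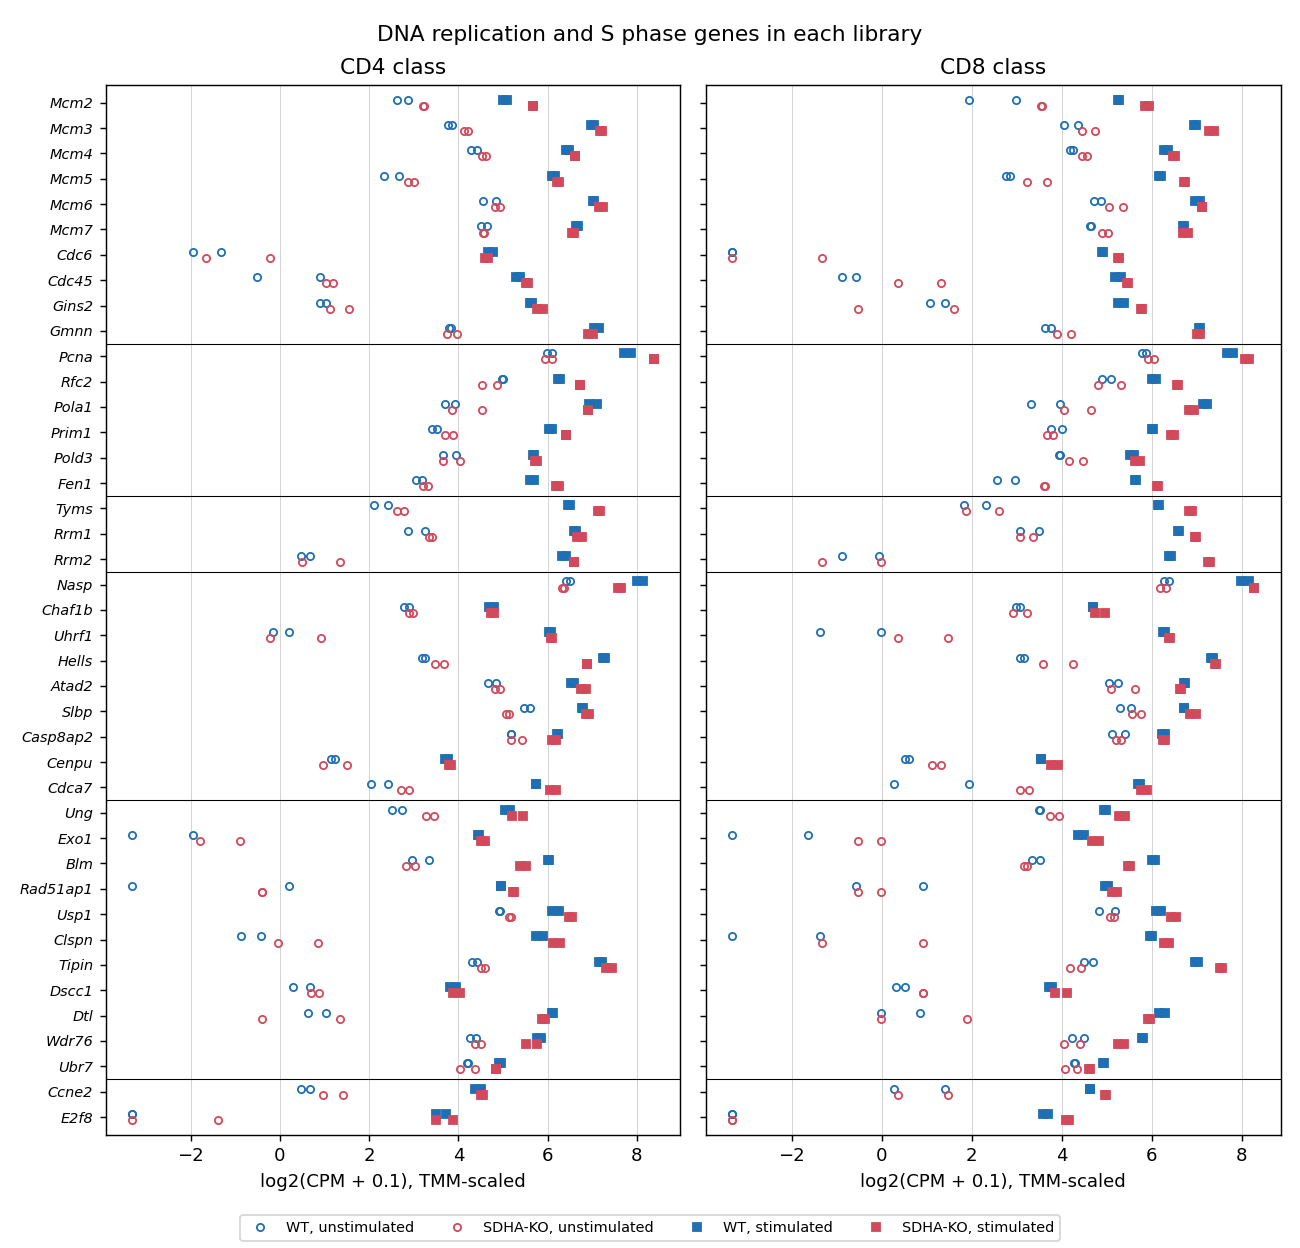
Level of each of the 41 genes (rows, in order of role, separated by lines) in each of the 8 libraries, as log2(CPM + 0.1) on the horizontal axis, for CD4 (left) and CD8 (right) sums. Open circles are unstimulated and filled squares stimulated libraries, blue for WT and red for SDHA-KO; in both panels the squares of each gene lie to the right of its circles.

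Without stimulation, few of these genes were called between the genotypes. In CD4 cells, 0 members were called higher and 1 lower in SDHA-KO (10 and 2 at an unadjusted p under 0.05 in the same edgeR test), where 0.526% of all genes were called higher and 0.575% lower. The member called lower was Slbp, which binds the stem-loop of histone mRNA, at 48.6 and 44.4 CPM in WT and 33.2 and 34.8 CPM in SDHA-KO (adjusted p = 0.038), a call that was lost without any 1 of the 4 unstimulated libraries and without either stimulated WT library. In CD8 cells, 1 member was called higher and 0 lower (13 and 0 unadjusted), against 0.283% and 0.664% of all genes. This was Cdca7, a zinc finger protein that recruits the remodeler Hells to chromatin, at 3.71 and 1.12 CPM in WT and 9.59 and 8.29 CPM in SDHA-KO (adjusted p = 0.041). That call was lost without WT unstimulated replicate 2, without either SDHA-KO unstimulated library or without WT stimulated replicate 1. Log2 fold changes of SDHA-KO over WT were above 0 for 34 and below 0 for 7 members in unstimulated CD4 cells. In unstimulated CD8 cells these counts were 30 and 10. After stimulation they were 30 and 11 in CD4 and 34 and 7 in CD8 cells. Most signs were thus above 0 before stimulation too, and the share of all genes above 0 is not given here. The 41 genes together held 4.98 to 6.52 of every 10000 UMIs in the unstimulated libraries, over both classes.

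After stimulation, the 41 genes took up a slightly larger share of UMIs in SDHA-KO cells of both classes. In CD4 cells they held 34.5 and 33.3 of every 10000 UMIs in the WT libraries and 37.6 and 37.3 in the SDHA-KO libraries. In CD8 cells they held 37.1 and 36.1 of every 10000 in WT and 41.3 and 40.99 in SDHA-KO. The groups did not overlap in either class. Relative to UMIs of nuclear genes alone, which takes the mitochondrial share out of the denominator, the values were 37.3 and 35.8 in WT against 38.6 and 38.2 in SDHA-KO CD4 cells, and 41.4 and 39.5 against 43.3 and 43.0 in CD8 cells, so the gap was smaller on this scale.

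**Figure D2:**
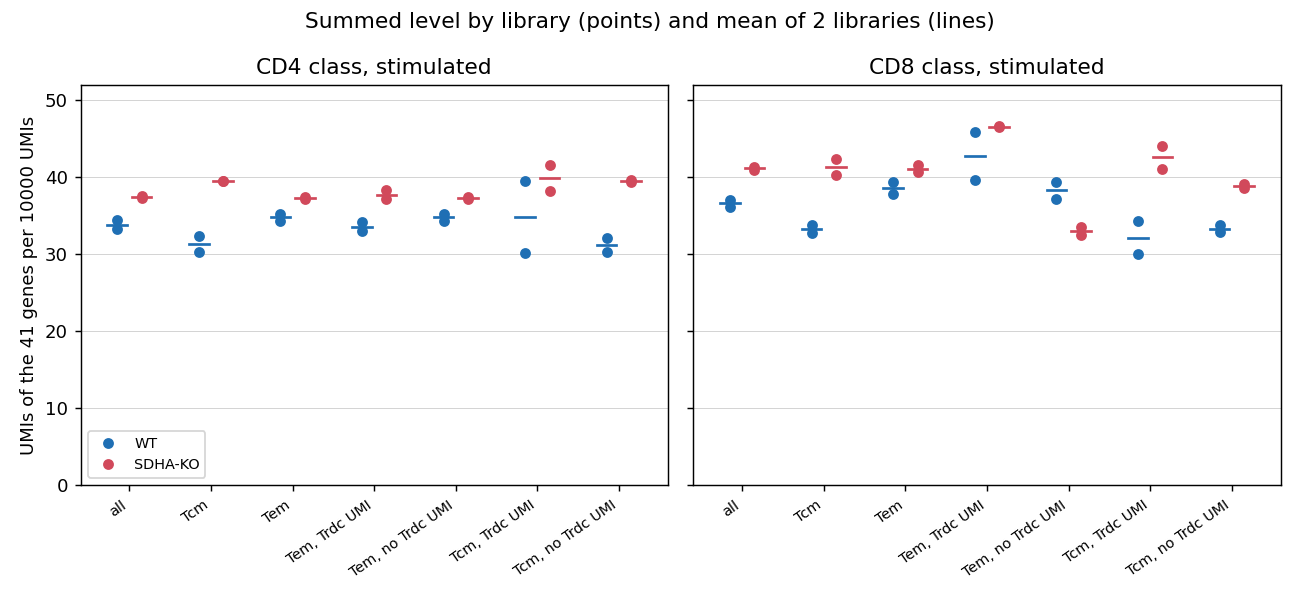
UMIs of the 41 genes per 10000 UMIs (vertical axis, from 0) in stimulated CD4 (left) and CD8 (right) cells, for all cells, for the annotated Tcm and Tem subsets and for cells of each subset with and without a Trdc UMI. Points are libraries (blue WT, red SDHA-KO) and lines the mean of 2; SDHA-KO lies above WT in all cells and in Tcm, and CD8 Tem cells of SDHA-KO with no Trdc UMI, at 33.5 and 32.5, lie below WT, at 39.4 and 37.2.

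In stimulated CD4 cells, thymidylate synthase, Mcm2 and 4 of the 6 polymerase, primase and clamp genes were higher in SDHA-KO, whereas a histone chaperone, a chromatin remodeler and a helicase were lower. Of the 41 members, 12 were called higher and 3 lower, against 22.7% and 20.5% of all genes tested, and the median log2 fold change was 0.11 beside -0.0009 for all genes. The share called higher was thus near that of all genes, and the share called lower was below it. The member count called higher fell to 7 without WT stimulated replicate 2. By role, 4 of 6 polymerase, primase and clamp genes were called higher and 0 lower (median 0.41), 2 of 10 licensing and helicase genes higher and 0 lower (median 0.17), 1 of 3 nucleotide genes higher (median 0.24), 2 of 9 chromatin genes higher and 2 lower (median 0.04), and 3 of 11 fork genes higher and 1 lower (median 0.10). Neither Ccne2 nor E2f8 was called.

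Tyms, thymidylate synthase, stood at 90.7 and 87.9 CPM in the WT and at 139.8 and 143.8 CPM in the SDHA-KO CD4 libraries, which did not overlap (0.67 on the log2 scale, SE 0.07, adjusted p = 3.7e-05). Mcm2, a subunit of the MCM ring, was at 32.1 and 33.8 CPM in WT against 51.0 and 51.3 CPM in SDHA-KO (0.63 on the log2 scale, SE 0.08). Pcna was at 209.6 and 233.6 CPM in WT against 333 and 335 CPM in SDHA-KO (0.59, SE 0.08). For these 3 genes the SDHA-KO level was 1.59, 1.55 and 1.51 times that of WT. Fen1, which cuts the flaps of Okazaki fragments, was at 48.4 and 51.9 CPM in WT against 72.7 and 76.9 CPM in SDHA-KO. Rfc2, a subunit of the clamp loader, was at 75.0 and 77.3 CPM in WT against 105.2 and 105.4 CPM in SDHA-KO. Clspn, the adaptor that passes the ATR signal on to Chk1, was at 59.1 and 53.2 CPM in WT against 78.2 and 69.2 CPM in SDHA-KO. In all 6 genes, both SDHA-KO libraries lay above both WT libraries, which was a condition of their choice and not a further result.

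The 3 genes that fell act on chromatin and on recombination intermediates. Blm, the helicase mutated in Bloom syndrome, was at 65.5 and 63.9 CPM in WT against 45.8 and 41.8 CPM in SDHA-KO CD4 cells (-0.56 on the log2 scale, SE 0.09, adjusted p = 0.00062). Nasp was at 283 and 257 CPM in WT against 191 and 199 CPM in SDHA-KO (-0.47, SE 0.07). Hells, a chromatin remodeler needed for DNA methylation, was at 156 and 151 CPM in WT against 118 and 118 CPM in SDHA-KO (-0.38, SE 0.07). No library of 1 genotype lay within the range of the other for these genes, which was again a condition of their choice.

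The MCM ring subunits did not move as a unit in CD4 cells. Besides Mcm2, Mcm3 was called higher, at 132 and 125 CPM in WT and 144 and 149 CPM in SDHA-KO (log2 fold change 0.19, adjusted p = 0.042). The log2 fold changes of Mcm4, Mcm5, Mcm6 and Mcm7 were 0.16, 0.12, 0.18 and -0.09, and none passed the test. Cdc6 (-0.10), Cdc45 (0.20), Rrm1 (0.10), Rrm2 (0.24, adjusted p = 0.050), Ccne2 (0.09), E2f8 (0.09), Uhrf1 (0.04) and Slbp (0.11) did not pass either. The other members called higher were Cdca7 (0.37), Prim1 (0.35), Usp1, which removes ubiquitin from Pcna (0.34), Atad2 (0.24) and Tipin (0.20). Ung, which removes uracil from DNA, the exonuclease Exo1, the clamp loader subunit Dscc1, the histone assembly factor Chaf1b and the centromere protein Cenpu lay between 0.04 and 0.24 and were not called. Slbp, the gene lower in unstimulated SDHA-KO cells, was at 109 and 110.5 CPM in WT against 121 and 116 CPM in SDHA-KO after stimulation.

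**Figure D3:**
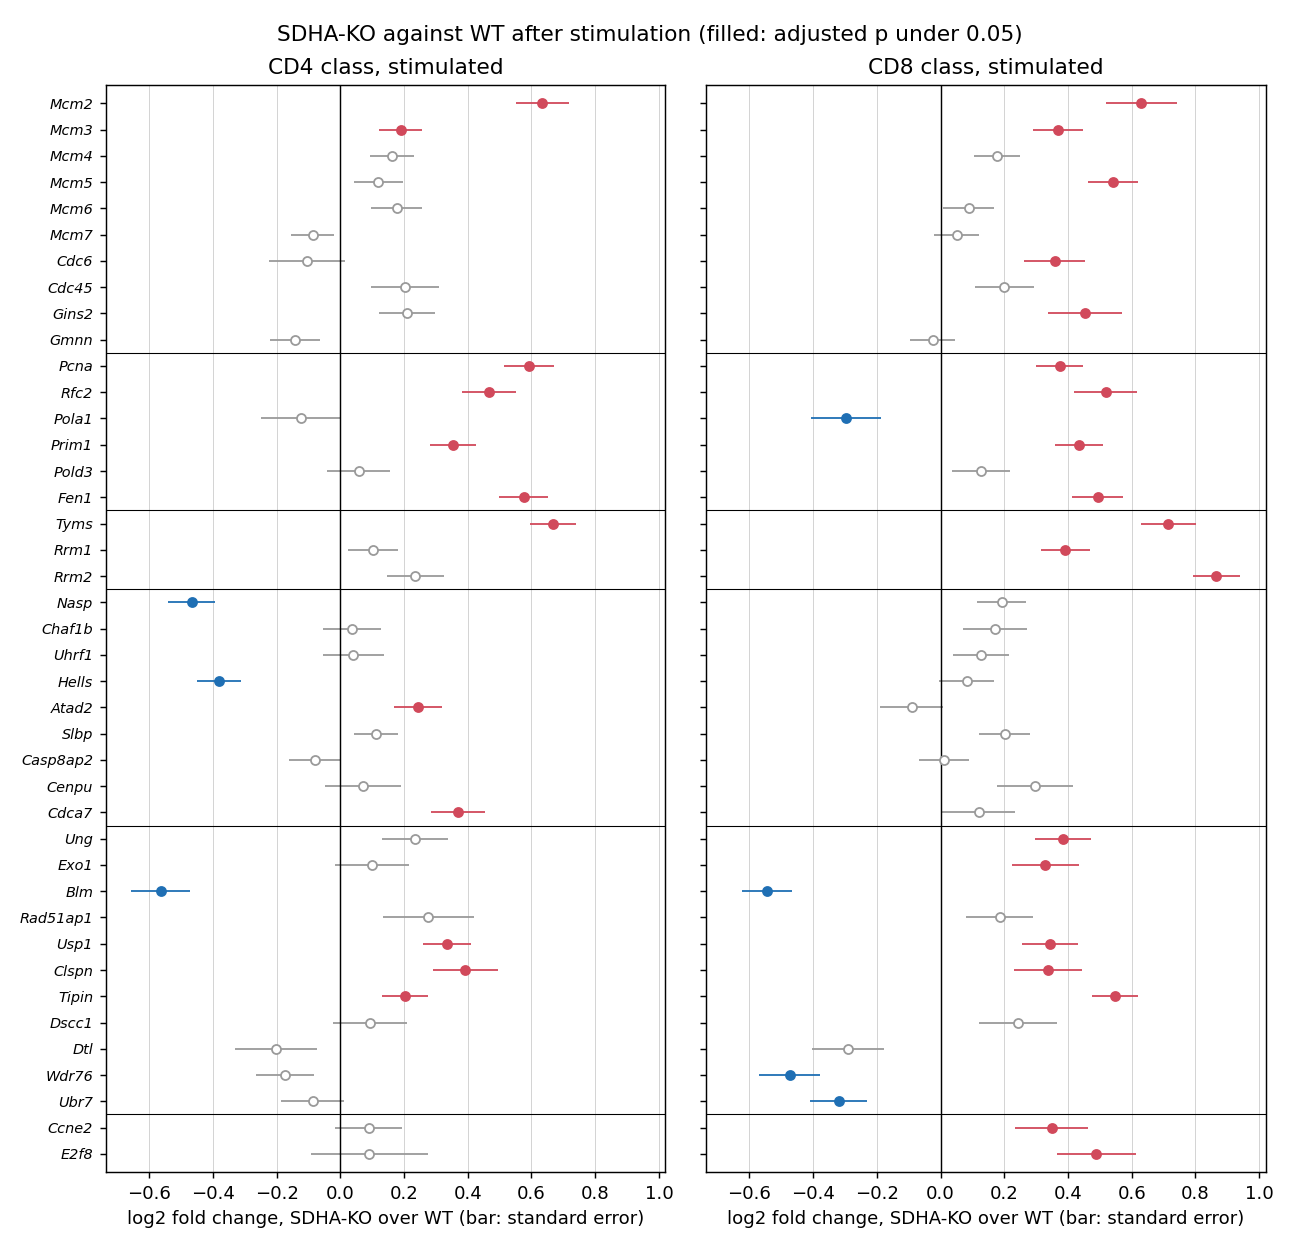
Log2 fold change of SDHA-KO over WT in stimulated cells (horizontal axis; bars are standard errors of the edgeR fit, 2 libraries a group) for the 41 genes in order of role, in CD4 (left) and CD8 (right) sums. Filled red points were called higher, filled blue points lower and open grey points were not called; Tyms, Mcm2, Rfc2 and Fen1 are filled red and Blm filled blue on both sides, while Nasp and Hells are blue in CD4 only.

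In stimulated CD8 cells, ribonucleotide reductase, thymidylate synthase and part of the helicase were higher in SDHA-KO. Of the 41 members, 19 were called higher and 4 lower, against 26.8% and 23.5% of all genes, and the median log2 fold change was 0.24 beside -0.0096 for all genes. The share called higher was above that of all genes and the share called lower below it. By role, 5 of 10 licensing and helicase genes were called higher (median 0.28), 4 of 6 polymerase, primase and clamp genes higher and 1 lower (0.40), 3 of 3 nucleotide genes higher (0.72), 5 of 11 fork genes higher and 3 lower (0.24), and 2 of 2 entry regulators higher (0.42). None of the 9 chromatin genes was called in either direction (median 0.13).

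Rrm2 showed the largest difference of the members in CD8 cells, at 83.7 and 86.4 CPM in the WT and 157 and 153 CPM in the SDHA-KO libraries (0.87 on the log2 scale, SE 0.07, adjusted p = 6e-06). Its partner Rrm1, the large subunit of the same enzyme, was at 95.5 and 97.1 CPM in WT against 127 and 125 CPM in SDHA-KO (0.39). Tyms was at 72.0 and 70.2 CPM in WT against 114 and 119 CPM in SDHA-KO (0.72, SE 0.09). The nucleotide genes were therefore 1.82, 1.31 and 1.64 times as high in SDHA-KO. Mcm2 was at 37.8 and 38.8 CPM in WT against 57.6 and 61.2 CPM in SDHA-KO. Mcm5 was at 73.8 and 71.4 CPM in WT against 104 and 107 CPM in SDHA-KO. Tipin, which forms the fork protection complex with Timeless, was at 125 and 131 CPM in WT against 184 and 189.8 CPM in SDHA-KO. Rfc2 was at 67.7 and 64.1 CPM in WT against 93.6 and 95.3 CPM in SDHA-KO. All of these pairs were apart, with the SDHA-KO libraries above, which was a condition for the genes chosen by size of change.

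Among the other genes followed by name in CD8 cells, Mcm3 (log2 fold change 0.37), Cdc6 (0.36), Pcna (0.37), Ccne2 (0.35), the cyclin that drives S phase entry with Cdk2, and E2f8 (0.49) were called higher. Fen1 (0.49), Gins2 (0.45), Ung (0.38), Usp1 (0.34), Clspn (0.34) and Exo1 (0.33) were called higher too. Mcm4 (0.18), Mcm6 (0.09), Mcm7 (0.05), Cdc45 (0.20), Uhrf1 (0.13) and Slbp (0.20) were not called, nor were Cenpu (0.30), Dscc1 (0.24) and Chaf1b (0.17). Blm was at 66.9 and 64.5 CPM in WT against 45.8 and 44.1 CPM in SDHA-KO (-0.55, SE 0.08, adjusted p = 0.00017). Wdr76, a WD40 protein that binds damaged DNA, was at 55.2 and 55.8 CPM in WT against 41.6 and 38.2 CPM in SDHA-KO. Ubr7 was at 30.4 and 30.3 CPM in WT against 24.5 and 24.1 CPM in SDHA-KO. Pola1, the catalytic subunit of polymerase alpha, was at 150.3 and 140.5 CPM in WT against 123 and 114 CPM in SDHA-KO, in contrast to its primase Prim1, at 65.6 and 64.4 CPM in WT and 86.4 and 89.4 CPM in SDHA-KO.

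E2F letters in the promoter window were found for 3 of the 12 members called higher, 1 of the 3 called lower and 10 of the 26 not called in CD4 cells, and for 4 of 19, 2 of 4 and 8 of 18 in CD8 cells, counting a member without a window as having none found. Of the genes whose stretches are shown above, Mcm5 and Cdc6 were called higher and Pola1 lower in CD8 cells, and Cdca7 was called higher and Hells lower in CD4 cells.

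The CD8 counts changed when cells with a Trdc UMI were left out. In SDHA-KO CD8 cells with a Trdc UMI, the 41 genes held 45.5 and 46.1 of every 10000 UMIs, and in those without one 34.4 and 33.4, with WT cells without one at 37.1 and 35.7. Median depth was 29190 and 30120 UMIs in SDHA-KO CD8 cells with a Trdc UMI and 31520 and 29910 in those without, but within the Tem subset it was 65430 and 64710 with and 39050 and 36190 without. Leaving out every cell with a Trdc UMI, in all libraries, gave 7 members called higher and 11 lower in CD8 cells, and the median log2 fold change became -0.10 beside -0.03 for all genes. A stricter definition, CD8 cells with a Cd8a or Cd8b1 UMI and no UMI of Cd4 or Trdc, gave 6 higher and 12 lower. The shares of all genes called among these cells are not given here, so the counts are not set against them.

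Individual CD8 members divided under this choice. The log2 fold change of Rrm2 was 0.87 in all CD8 cells and 0.12, not called, without Trdc UMIs, and that of Rrm1 went from 0.39 to 0.03. Tyms (0.49), Rfc2 (0.45), Mcm2 (0.36), Fen1 (0.36), Tipin (0.33), the GINS subunit Gins2 (0.32) and Pcna (0.21) were still called higher. Hells (-0.36), Nasp (-0.33), Mcm7 (-0.31), Uhrf1 (-0.31), which carries DNA methylation across replication, and Gmnn (-0.43), the inhibitor of relicensing geminin, were called lower, none of which was called with all CD8 cells. Blm was at -0.84 and Pola1 at -0.72. In CD4 cells, where few cells had a Trdc UMI, the same choice gave 11 members higher and 3 lower, close to the 12 and 3 of all cells. Whether the cells with Trdc UMIs account for the difference in the other members was not tested.

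Restricting to cells with percent.mt under 10 also changed the counts, which are given without the share of all genes called among these cells. It kept 39.1% and 40.95% of WT and 86.9% and 90.0% of SDHA-KO CD4 cells, and 24.3% and 29.3% of WT and 65.0% and 64.1% of SDHA-KO CD8 cells. In CD4 cells it gave 6 members higher and 6 lower, with a median of -0.09. Tyms (0.43), Mcm2 (0.32), Pcna (0.27) and Fen1 (0.25) were still called higher, whereas Mcm7 (-0.36), Gmnn (-0.43) and Mcm5 (-0.22) joined Nasp (-0.64), Hells (-0.55) and Blm (-0.44) among those called lower. In CD8 cells it gave 4 higher and 5 lower, with a median of -0.005, and Rrm2 (0.49), Tyms (0.47), Tipin (0.24) and Prim1 (0.22) were the members called higher. Tyms was called higher and Blm lower in both classes under each of these choices of cells.

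**Figure D4:**
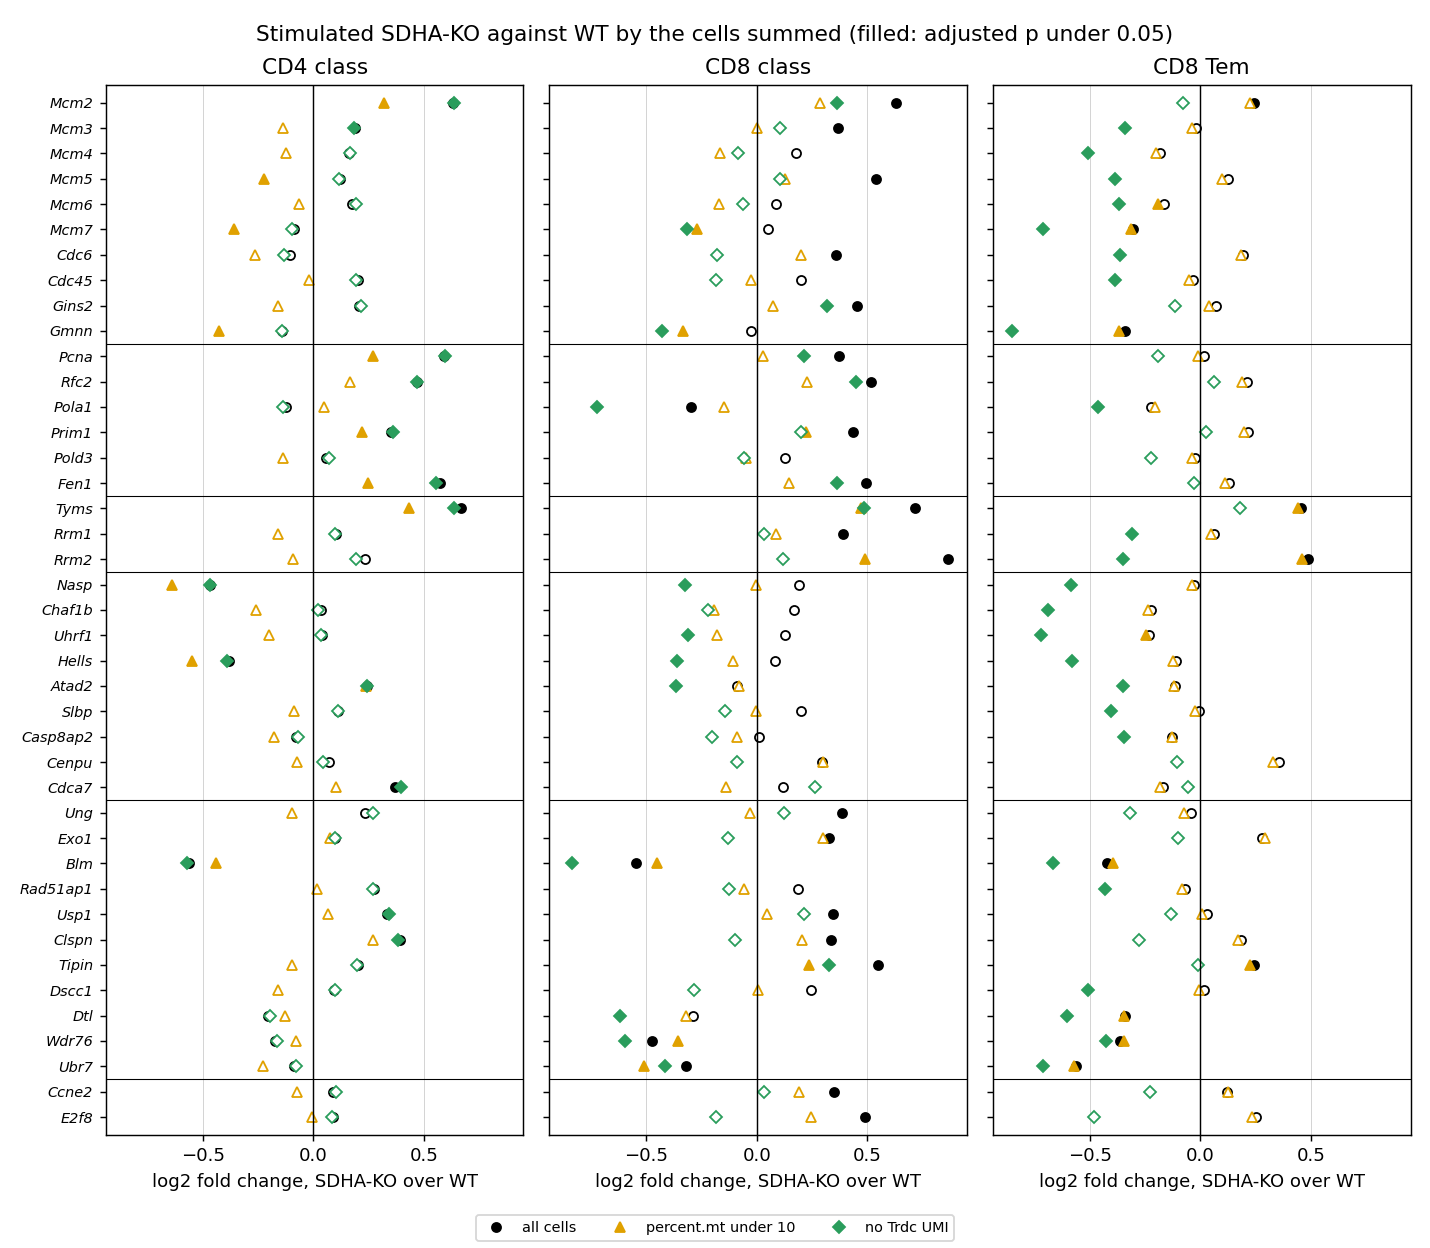
Log2 fold change of SDHA-KO over WT in stimulated CD4, CD8 and CD8 Tem cells (panels) for the 41 genes, computed from all cells (black circles), from cells with percent.mt under 10 (yellow triangles) and from cells with no Trdc UMI (green diamonds); filled symbols had an adjusted p under 0.05. In CD4 cells the green diamonds lie on the circles, whereas in CD8 and CD8 Tem cells most lie to the left of them, for Rrm2 at 0.12 against 0.87 in CD8.

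For some members the difference between genotypes was not the same in CD4 and CD8 cells. With library as a block, the SDHA-KO effect was higher in CD8 than in CD4 cells for 7 members and lower for 3, against 11.9% and 10.4% of all genes. Both counts were near the shares of all genes. The log2 effect in CD8 minus that in CD4 cells was 0.65 for Nasp (SE 0.06, adjusted p = 0.00067), 0.62 for Rrm2 (SE 0.06) and 0.45 for Hells (SE 0.07). It was -0.35 for Atad2, a bromodomain ATPase (SE 0.08), -0.32 for Wdr76 and -0.23 for Pcna. Without WT stimulated replicate 1, 4 members were higher and 1 lower, and without WT stimulated replicate 2 the lower count was 0. Among cells with no Trdc UMI, 0 members were higher and 8 lower. The share of all genes called among these cells is not given here, so these counts are not set against it.

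The authors annotated stimulated cells as Tcm (central memory) or Tem (effector memory), and the mix differed between genotypes: Tcm made up 62.9% and 61.4% of WT and 20.8% and 17.4% of SDHA-KO CD4 cells, and 76.8% and 71.1% of WT and 44.0% and 41.4% of SDHA-KO CD8 cells. Within CD4 Tcm the 41 genes held 32.3 and 30.2 of every 10000 UMIs in WT and 39.5 and 39.5 in SDHA-KO, and within CD4 Tem 35.2 and 34.3 in WT and 37.5 and 37.1 in SDHA-KO. Within CD8 Tcm they held 33.8 and 32.8 in WT and 40.3 and 42.4 in SDHA-KO, and within CD8 Tem 39.4 and 37.8 in WT and 41.5 and 40.7 in SDHA-KO. On these UMI totals, which include mitochondrial UMIs, the genotypes were apart in each subset, and further apart in Tcm than in Tem. On the TMM scale of the tests, log2 fold changes were above 0 for 13 and below 0 for 28 members in CD4 Tem. The counts were 19 and 22 in CD8 Tem, 24 and 17 in CD4 Tcm, and 32 and 9 in CD8 Tcm. The direction in Tem thus depended on the scaling. The subsets also differed in depth and in mitochondrial share. CD4 Tcm had medians of 10850 and 10880 UMIs and 21.8% and 20.6% mitochondrial UMIs in WT, and 6872 and 7418 UMIs and 11.2% and 11.1% in SDHA-KO. CD4 Tem had 60980 and 61520 UMIs and 2.90% and 2.76% in WT, and 28230 and 28380 UMIs and 1.32% and 1.31% in SDHA-KO. CD8 Tcm had 10430 to 11490 UMIs and 19.2% to 21.5% over the 4 libraries, and CD8 Tem 48530 to 65560 UMIs and 2.39% to 3.11%. The part of these differences in the subset results was not tested beyond the restriction to percent.mt under 10.

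In CD4 Tcm, 8 members were called higher and 1 lower in SDHA-KO, against 12.8% and 12.3% of all genes. Rrm1 was at 102 and 90.8 CPM in WT against 159 and 165 CPM in SDHA-KO (0.75 on the log2 scale, SE 0.10, adjusted p = 0.0011), Fen1 at 35.6 and 33.3 against 62.2 and 52.5 CPM (0.74), and Tyms at 88.6 and 81.7 against 130.4 and 127 CPM (0.60). Pcna, Mcm2, Rrm2, Clspn and Mcm3 were the other members called higher, and Blm was lower (-0.42). Without WT stimulated replicate 1 the higher count was 5, and without replicate 2 it was 4. With library totals as the only scaling, which moved the median of all genes by 0.21 here and by 0.20 in CD4 Tem, the count was 17 higher and 0 lower.

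In CD4 Tem, 3 members were called higher and 6 lower, against 15.5% and 16.1% of all genes. The share called higher was below that of all genes and the share called lower near it. Tyms (0.42), Mcm2 (0.32) and Pcna (0.26) were higher. Nasp was at 317 and 295 CPM in WT against 189.7 and 195 CPM in SDHA-KO (-0.67, SE 0.07, adjusted p = 0.00088), Hells at 177 and 171 against 117.5 and 115.6 CPM (-0.58), and Gmnn at 168 and 182 against 135 and 121 CPM (-0.45). Blm (-0.42), Mcm7 (-0.38) and Ubr7 (-0.25) were the other members called lower. Library totals alone, with that shift of all genes, gave 9 higher and 3 lower. Leaving out WT stimulated replicate 1 gave 1 higher and 3 lower, and leaving out replicate 2 gave 1 higher.

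**Figure D5:**
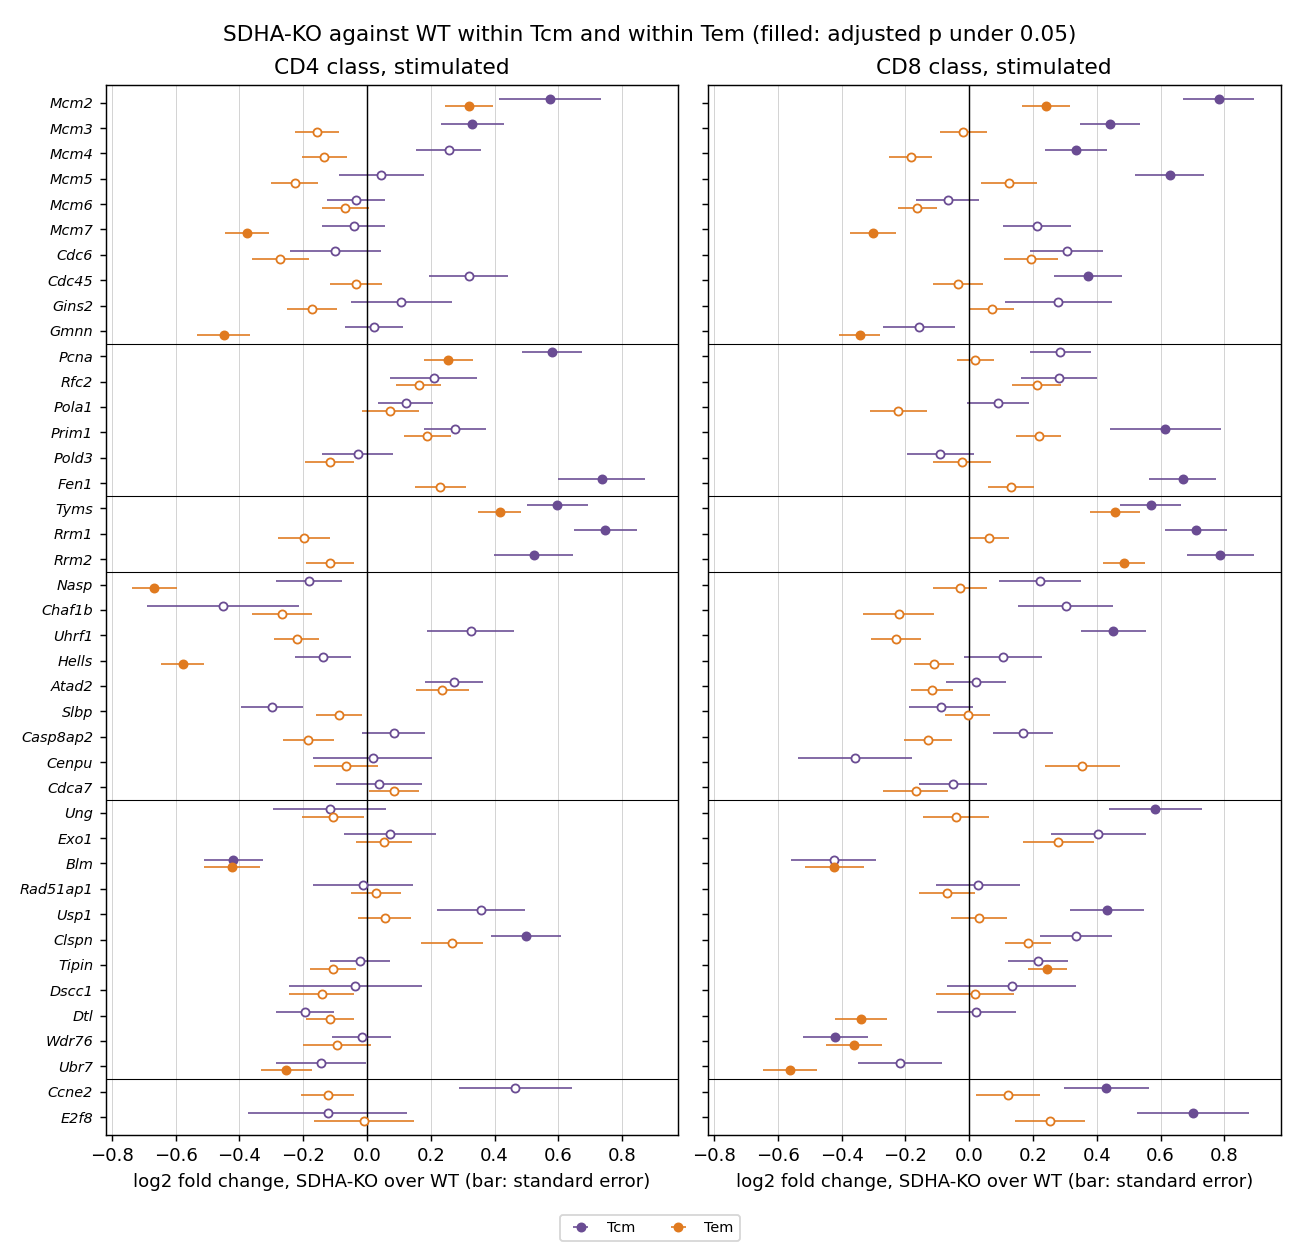
Log2 fold change of SDHA-KO over WT (horizontal axis; bars are standard errors) for the 41 genes within annotated Tcm (purple) and Tem (orange) cells of the stimulated CD4 (left) and CD8 (right) classes; filled points had an adjusted p under 0.05. Most purple points lie to the right of the orange ones, for Rrm1 at 0.75 in CD4 Tcm.

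The effect of SDHA loss was lower in Tem than in Tcm for several CD4 members. With library as a block, 0 members had a higher and 7 a lower effect in CD4 Tem than in CD4 Tcm (0 and 15 at an unadjusted p under 0.05), against 1.64% and 3.02% of all genes. The log2 effect in Tem minus that in Tcm was -0.94 for Rrm1 (SE 0.11, adjusted p = 0.0012), -0.63 for Rrm2 (SE 0.13) and -0.54 for Uhrf1 (SE 0.14). The lower count was 2 without WT stimulated replicate 2. With percent.mt under 10 the lower count was 13, given without the share of all genes called among these cells. These are changes of a difference, not of a level: Rrm1 was higher in SDHA-KO than in WT within Tcm.

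In CD8 Tcm, 15 members were called higher and 1 lower in SDHA-KO, against 14.4% and 13.5% of all genes. Rrm2 was at 61.4 and 56.6 CPM in WT against 105.6 and 97.5 CPM in SDHA-KO (0.79 on the log2 scale, SE 0.11, adjusted p = 0.0027), Mcm2 at 29.6 and 29.4 against 49.5 and 52.4 CPM (0.78), and Rrm1 at 105.5 and 97.1 against 167 and 164 CPM (0.71). Fen1 (0.67), Mcm5 (0.63) and E2f8 (0.70) followed. Wdr76 was lower (-0.42). The higher count was 3 without WT stimulated replicate 1 and 2 without replicate 2. It was 6 among cells with no Trdc UMI, given without the share of all genes called there.

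In CD8 Tem, 4 members were called higher and 6 lower, against 17.1% and 16.3% of all genes. As in CD4 Tem, the share called higher was below that of all genes and the share called lower near it. Rrm2 was at 132 and 126.5 CPM in WT against 186 and 175 CPM in SDHA-KO (0.49, SE 0.07), Tyms at 101 and 89.2 against 129 and 131 CPM (0.46), and Tipin at 187 and 181 against 218 and 217.5 CPM (0.24). Ubr7 (-0.56), Blm (-0.42) and Wdr76 (-0.36) led the members called lower. Among cells with no Trdc UMI, 0 members were higher and 24 lower, with a median of -0.35, including Gmnn (-0.85), Uhrf1 (-0.72), Mcm7 (-0.71) and Rrm2 (-0.35). The share called and the median of all genes among these cells are not given here, so these values are not set against them. Library totals alone gave 12 higher and 3 lower with all cells. Every fit without 1 library called fewer than the 4 and 6 of all libraries: 2 were higher without WT stimulated replicate 2 or either SDHA-KO library, and 2 were lower without WT replicate 1 and 3 without SDHA-KO replicate 2. Between CD8 Tem and CD8 Tcm, edgeR called 0 members higher and 0 lower (1 and 15 unadjusted, and 0 higher and 1 lower by DESeq2), against 0.142% and 0.0448% of all genes, but without SDHA-KO stimulated replicate 1 or 2 it called 8 or 10 lower.

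The authors' finer clusters showed where in the subsets these transcripts were few. Cluster Tem4 of the CD4 class, which had at least 20 cells per library in SDHA-KO only, held 15.4 and 14.4 member UMIs per 10000, and Tem6 of the CD8 class, also in SDHA-KO only, 23.5 and 20.7. Tem7 of the CD4 class held 26.4 and 26.8 in SDHA-KO and 19.3 and 16.4 in WT. CD4 Tem1, Tem2 and Tem3 held 40.3 to 46.9 in SDHA-KO and 33.6 to 40.48 in WT. Cluster Tem2 of the CD8 class held 45.4 and 47.1 in SDHA-KO, where 81.2% of its cells had a Trdc UMI, and 39.6 and 38.6 in WT.

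For Pcna and Rrm2, the share of cells with a UMI was also compared in stimulated cells after depth was evened out. Each cell was thinned to 3000 UMIs by calculation, leaving out 0 to 19 shallower cells per library and class. Pcna was then expected in 56.5% and 57.1% of SDHA-KO and 39.4% and 41.6% of WT CD4 cells (89.0% and 89.6% against 81.0% and 83.5% before thinning). Rrm2 was expected in 20.8% and 20.5% of SDHA-KO and 17.2% and 17.6% of WT CD4 cells, while without thinning the order was the opposite, at 55.9% and 56.6% against 58.2% and 57.6%. In CD8 cells Rrm2 was expected in 30.5% and 29.7% of SDHA-KO and 18.8% and 18.4% of WT cells (73.6% and 70.5% against 58.1% and 57.7% before thinning).

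The share of cells that carried the module did not rise with SDHA loss in CD4 cells. Thinned to 3000 UMIs, 82.6% and 79.2% of SDHA-KO and 86.0% and 85.0% of WT CD4 cells held at least 5 UMIs of the 41 genes (98.1% and 96.7% against 99.4% and 98.9% before thinning). In CD8 cells the shares were 90.6% and 89.8% in SDHA-KO and 90.8% and 88.9% in WT (100% and 100% against 99.8% and 99.4%). The SDHA-KO share was thus below that of WT in CD4 cells, although the summed level was above it, and the shares of the genotypes overlapped in CD8 cells.

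The SDHA-KO effect after stimulation was also set against the effect before it. In CD4 cells the effect was higher after stimulation for 3 members and lower for 2, against 10.9% and 10.5% of all genes. Rfc2 (0.75, SE 0.14), Pcna (0.61, SE 0.12) and Slbp (0.56, SE 0.11) had a higher effect, and Hells (-0.75, SE 0.15) and Nasp (-0.35, SE 0.11) a lower effect. In CD8 cells 2 members had a higher and 3 a lower effect, against 13.5% and 10.2% of all genes. Tipin (0.83, SE 0.16) and Prim1 (0.60, SE 0.18) had a higher effect, and Cdca7 (-1.86, SE 0.40), Pola1 (-1.05, SE 0.27) and Hells (-0.77, SE 0.24) a lower effect. For Cdca7 in CD8 cells, the gene was at 52.95 and 51.8 CPM in WT against 59.8 and 53.9 CPM in SDHA-KO after stimulation, so the difference seen without stimulation was smaller with it. With percent.mt under 10, 0 members had a higher and 5 a lower effect in each class, so the calls of Rfc2, Pcna, Slbp, Tipin and Prim1 were lost, with adjusted p from 0.060 to 0.21. The share of all genes called among these cells is not given here. The CD8 lower count was 0 without WT unstimulated replicate 2, and the CD4 lower count was 1 without any library other than SDHA-KO unstimulated replicate 1.

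Other genes of the replication pathway moved in both directions. Of 63 further replication genes outside the module, 23 were called higher and 10 lower in stimulated SDHA-KO CD4 cells (median 0.10) and 21 higher and 14 lower in CD8 cells (median 0.08), where 22.7% and 20.5% of all genes were called in CD4 and 26.8% and 23.5% in CD8 cells. These background shares apply to the further lists as well, and the CD8 counts of these 63 genes were near them. In CD4 cells Rnaseh2c, a subunit of the nuclease that removes ribonucleotides from DNA (log2 fold change 1.03), Pole4, a small subunit of polymerase epsilon (0.92), and Rpa3, a subunit of the single-strand binding complex (0.82), rose most. Prim2, the large primase subunit (-0.58), Orc1, the origin recognition ATPase (-0.53), and Mtbp (-0.41) fell most. In CD8 cells Dctpp1, which hydrolyzes modified dCTP (0.87), Rnaseh2c (0.80) and Rfc5, another clamp loader subunit (0.77), rose most, and Mcm9 (-0.59), Timeless, the partner of Tipin (-0.51), and the MCM kinase Cdc7 (-0.50) fell most.

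A list of 19 genes held members of the E2F and RB family together with other genes such as Ccne1, Ccna2, Cdc25a and Lin9. Of these, 7 were called higher and 1 lower in CD4 cells (median 0.05), and 8 higher and 3 lower in CD8 cells (median 0.20). E2f7, the relative of E2f8 (0.79), Rbl2 (0.50) and the phosphatase Cdc25a (0.47) rose most in CD4 cells, where Lin9 (-0.24) fell. Ccne1, the other E-type cyclin (0.83), Cdc25a (0.77) and Ccna2 (0.66) rose most in CD8 cells, and the retinoblastoma gene Rb1 (-0.69), Tfdp2 (-0.67) and E2f2 (-0.54) fell. Of 30 mitosis genes, 4 were called higher and 8 lower in CD4 cells (median -0.13), with Ube2c (0.55), Birc5 (0.52) and Cdk1 (0.31) higher and Anln (-0.59), Bub1 (-0.59) and Ttk (-0.56) lower. In CD8 cells 9 were called higher and 9 lower (median -0.11), with Cdc20 (0.99), Ube2c (0.89) and Birc5 (0.84) higher and Ttk (-0.92), Bub1 (-0.89) and Top2a (-0.51) lower. The mitosis counts were near the background in CD8 cells in both directions and in CD4 cells among the lower calls.

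Targets of p53, the factor that halts the cycle on DNA damage, were mostly higher in SDHA-KO cells. In CD4 cells 13 of 14 were called higher and 1 lower, with a median of 1.48, against 22.7% and 20.5% of all genes. In CD8 cells 9 of the 13 tested were higher and 1 lower, with a median of 0.63, against 26.8% and 23.5%. Phlda3 (3.44 in CD4 and 2.65 in CD8 cells) and Ccng1 (2.03 and 1.45) rose in both classes, Eda2r (3.22) in CD4 cells and Zmat3 (1.45) in CD8 cells, and Gadd45a fell (-1.58 and -1.47). All the lists outside the module were examined in all cells only, not among cells with no Trdc UMI or with percent.mt under 10.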

How the data were processed

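Single-cell RNA-seq was performed on 8 T cell libraries. The deposited matrix holds UMI counts, not normalized, which per the labels the authors made with bcl2fastq and Cell Ranger on mm10, with a table of class, subset and percent.mt per cell. The study capped genes per cell at 6000 (unstimulated) and 8000 (stimulated), which can trim the deepest cells. How doublets were treated is not given in the sources used here, and no doublet caller was run. Counts were summed per library, class and subset in Python 3.11.15 (pandas 2.3.3, scipy 1.17.1), and fitted in R 4.3.3 with edgeR 4.0.16 (quasi-likelihood test, TMM, minimum count 10, total 15), 8 libraries per class fit and 4 per subset fit. Alternatives used DESeq2 1.42.0, limma 3.58.1, other scalings, filters and cells. The fits were tested on simulated data. The members and lists were chosen with earlier results of these data known. Members were counted by role. In each direction, up to 6 called members with the largest change, and a fixed set beside them, were described with their values. Those chosen by size of change were taken only from called members whose stimulated libraries did not overlap between genotypes. For differences and other lists, at most 3 per direction were named, and further members were named beside them after their values were seen.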

Additional observations from a re-analysis of the deposited data

Results flagged for a closer look

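All 27 results here are log2 differences between 2 SDHA-KO effects that passed edgeR's quasi-likelihood test of the difference itself. The state difference passed above 0 for 10.9% and below 0 for 10.5% of all genes tested in the CD4 fit. The CD8 shares were 13.5% and 10.2%. Members, at 3 and 2 of 41 (CD4) or 2 and 3 (CD8), were near or below these shares. For CD8 minus CD4, 7 and 3 members were near the 11.9% and 10.4% of all genes. For CD4 Tem minus Tcm, 0 and 7 members stood against 1.64% and 3.02%, so the lower calls exceeded the background. Between the states, the effect after stimulation minus that before it in CD4 cells was 0.61 for Pcna, 0.75 for Rfc2, 0.56 for Slbp, -0.75 for Hells and -0.35 for Nasp. In CD8 cells it was 0.83 for Tipin, 0.60 for Prim1, -1.86 for Cdca7, -1.05 for Pola1 and -0.77 for Hells. With percent.mt under 10, no state difference above 0 passed in either class, and without WT unstimulated replicate 2 none below 0 passed in CD8 cells. Between the subsets, the effect in CD4 Tem minus that in CD4 Tcm was -0.94 for Rrm1, -0.63 for Rrm2, -0.54 for Uhrf1, -0.48 for Nasp, -0.47 for Mcm3, -0.46 for Gmnn and -0.43 for Hells. Between the classes, the effect in stimulated CD8 minus that in CD4 cells was 0.65 for Nasp, 0.62 for Rrm2, 0.45 for Hells, 0.45 for Cdc6, 0.41 for Mcm5, 0.33 for Tipin, 0.27 for Rrm1, -0.35 for Atad2, -0.32 for Wdr76 and -0.23 for Pcna. In the last comparison, 0 members were higher and 8 lower among cells with no Trdc UMI, given without the share of all genes called there.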

How the results depend on the processing

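All 41 members were called higher after stimulation in both genotypes and classes under every alternative, except that 40 were called in SDHA-KO CD8 cells by DESeq2, in strict cells (a receptor UMI of their own class and none of the other or of Trdc), in cells with no Trdc UMI and without SDHA-KO unstimulated replicate 1. Of 320 counts of calls under alternatives other than leaving out a library, 249 stayed within 1.5 times the reported count and 71 did not, and the cause was not tested. Counts are given as members higher and lower in SDHA-KO, without the share of all genes called under each alternative.

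With percent.mt under 10, CD4 had 6 and 6, CD8 4 higher, CD8 Tcm 4 and 2, the difference between states 0 and 5 in both classes, and Tem minus Tcm 13 lower in CD4 and 1 in CD8. Without Trdc UMIs, CD8 had 7 and 11, CD8 Tcm 6 higher, CD8 Tem 0 and 24, the state difference in CD8 1 and 7, and CD8 minus CD4 0 and 8. With strict cells, these were 6 and 12, 6, 0 and 27, 0 and 6, and 0 and 7, and Tem minus Tcm was 4 lower in CD4 and 3 in CD8. Among the genes followed by name in the whole classes, reversed log2 fold changes were, for percent.mt under 10, CD4 Mcm3 -0.14, Mcm5 -0.22, Tipin -0.096 and CD8 Mcm7 -0.27, and in CD8 without Trdc UMIs and with strict cells Mcm7 -0.31 and -0.37, Cdc6 -0.18 and -0.27, Nasp -0.33 and -0.40, Uhrf1 -0.31 and -0.38, Hells -0.36 and -0.44, Clspn -0.10 and -0.15, and E2f8 -0.19 and -0.32. Of other called members, CD8 Ung turned to -0.032 with percent.mt under 10, CD8 Exo1 to -0.13 and -0.096 without Trdc UMIs and with strict cells, and in CD8 Tem Rrm2 to -0.35 and -0.43, Mcm2 to -0.078 and -0.13 and Tipin to -0.0091 and -0.053.

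With library totals alone, CD4 Tcm had 17 and 0, CD4 Tem 9 and 3, CD8 Tcm 0 lower, CD8 Tem 12 and 3, unstimulated CD4 0 lower and CD8 2 higher, the state difference 1 lower in CD4 and 1 and 6 in CD8, and CD8 minus CD4 5 lower. RLE scaling gave a CD4 state difference of 1 lower and CD4 Tem minus Tcm of 11 lower, and nuclear genes only gave 1 lower for the former. No filter gave unstimulated CD4 1 higher, a CD4 state difference of 1 lower, CD4 Tem 5 higher, CD8 Tem 7 higher, CD8 Tcm 2 lower, and Tem minus Tcm 2 lower in each class. DESeq2 gave CD4 Tcm 5 and 0, CD8 2 lower, CD8 Tcm 8 and 0, unstimulated CD8 3 higher, state differences of 1 lower in CD4 and 1 higher in CD8, CD8 Tem minus Tcm 1 lower and CD8 minus CD4 0 lower. Limma on mean log values gave CD4 23 and 6, unstimulated CD4 0 lower and CD8 0 higher.

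Same-numbered libraries did not deviate together (correlations -0.082 to 0.060), and samples were treated as unpaired. With 2 libraries a group, this cannot show whether the replicate numbers pair samples. With a replicate block, unstimulated CD4 had 0 lower, the CD4 state difference 1 lower and CD8 Tem 2 higher.

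Leaving out 1 library gave ranges of 7 to 13 higher and 3 to 4 lower in CD4, 14 to 19 and 3 to 5 in CD8, 4 to 10 and 0 to 1 in CD4 Tcm, 1 to 3 and 3 to 6 in CD4 Tem, 2 to 13 and 0 to 2 in CD8 Tcm, and 2 to 3 and 2 to 5 in CD8 Tem. Unstimulated calls were 0 to 1 lower in CD4 and 0 to 1 higher in CD8. State differences were 1 to 2 lower in CD4, and 1 to 2 higher and 0 to 4 lower in CD8. Tem minus Tcm was 2 to 10 lower in CD4 and 0 to 10 lower in CD8, and CD8 minus CD4 was 4 to 7 higher and 0 to 3 lower. In CD8 Tem, 2 were higher without WT stimulated replicate 2 or either SDHA-KO library, and 2 lower without WT replicate 1 and 3 without SDHA-KO replicate 2. With 2 libraries a group, these ranges limit how firmly any count of calls holds.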
